A study of Drosophila melanogaster with 3 samples.

Results

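The Hox genes examined here are the 8 homeotic selector genes of Drosophila melanogaster, labial (lab), proboscipedia (pb), Deformed (Dfd), Sex combs reduced (Scr), Antennapedia (Antp), Ultrabithorax (Ubx), abdominal-A (abd-A) and Abdominal-B (Abd-B). They were taken by name, as 8 of the 13945 protein-coding genes of the annotation. Regions bound by the product of nautilus (nau) were assigned to a Hox gene when the summit lay in the gene body or within 10 kb on either side. By this rule the 8 windows, 497.5 kb together, held 6 of the 3767 regions that passed the irreproducible discovery rate (IDR) threshold. This threshold is the authors' cutoff on agreement between replicates. The resulting list equals the strongest 3767 regions of the list pooled over the replicates. A region in it therefore need not recur in each replicate. Its summits are called IDR summits below.

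All material came from 1 transgenic fly line that stably expresses nau with a C-terminal eGFP, so there was 1 group and no comparison between conditions. Whole embryos of both sexes, collected between 4 and 24 h, were used in 3 biological replicates. Chromatin was fragmented by sonication to 200 to 800 bp and precipitated with an anti-GFP antibody, per the sample descriptions, although the antibody field of the labels names nau. No untagged line was analysed here. Whole embryos mix all tissues and many stages, so a region cannot be assigned to a cell type or stage, and a region bound in few cells cannot be told apart from one bound weakly in many.

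Hox genes encode homeodomain transcription factors that give body segments their identity along the head-to-tail axis. They lie in 2 clusters on chromosome arm 3R, in an order that largely follows the order of the body parts they specify. The Antennapedia complex (ANT-C) holds lab, pb, Dfd, Scr and Antp, which act in the head and thorax. The bithorax complex (BX-C) holds Ubx, abd-A and Abd-B, which act in the thorax and abdomen. Their large introns and the intervals between them hold enhancers, Polycomb response elements and noncoding transcripts, and in the mesoderm they make the muscle pattern differ between segments. Nau is a basic helix-loop-helix factor of the MyoD family, expressed in a subset of somatic muscles and their precursors. Factors of this family bind E-boxes, the 6-base word CANNTG.

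The reference sequence around selected summits is shown first, because the Hox regions differ in which words they hold. The second Antp intron summit, at 6903504, is not printed, and the bxd summit lies outside the Hox windows. Each line is the 201 bases centred on a summit, 5′ to 3′ on the plus strand of Release 6 (dm6) from RefSeq, in lower case with every E-box in capitals.
Scr intron, chr3R:6828372-6828572: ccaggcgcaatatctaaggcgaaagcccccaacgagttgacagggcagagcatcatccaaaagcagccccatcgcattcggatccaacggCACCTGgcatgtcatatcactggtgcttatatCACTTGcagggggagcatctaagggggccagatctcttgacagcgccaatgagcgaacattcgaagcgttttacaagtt
abd-A, downstream, chr3R:16798760-16798960: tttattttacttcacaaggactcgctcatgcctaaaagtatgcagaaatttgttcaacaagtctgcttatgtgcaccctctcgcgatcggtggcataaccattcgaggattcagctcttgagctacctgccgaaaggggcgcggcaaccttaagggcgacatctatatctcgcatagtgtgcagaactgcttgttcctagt
Antp, upstream, chr3R:7000720-7000920: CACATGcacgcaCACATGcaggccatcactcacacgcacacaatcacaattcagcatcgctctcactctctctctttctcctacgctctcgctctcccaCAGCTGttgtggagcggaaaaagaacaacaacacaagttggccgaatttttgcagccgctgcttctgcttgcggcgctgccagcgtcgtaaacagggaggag
Antp intron, chr3R:6936261-6936461: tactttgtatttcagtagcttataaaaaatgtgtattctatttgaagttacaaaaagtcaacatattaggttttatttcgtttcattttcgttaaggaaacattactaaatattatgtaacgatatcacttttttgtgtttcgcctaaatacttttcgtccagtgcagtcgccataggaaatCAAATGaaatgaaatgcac
Ubx intron, chr3R:16702931-16703131: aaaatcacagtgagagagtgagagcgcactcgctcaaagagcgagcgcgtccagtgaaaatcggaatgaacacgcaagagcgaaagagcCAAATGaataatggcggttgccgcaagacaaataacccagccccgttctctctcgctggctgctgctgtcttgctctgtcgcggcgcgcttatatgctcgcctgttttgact
lncRNA:bxd, between Ubx and abd-A, chr3R:16748661-16748861: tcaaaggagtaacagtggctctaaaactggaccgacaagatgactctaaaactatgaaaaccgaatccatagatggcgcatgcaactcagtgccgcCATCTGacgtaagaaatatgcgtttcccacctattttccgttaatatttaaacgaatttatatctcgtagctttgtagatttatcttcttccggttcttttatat

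The Scr window had an E-box CACCTG starting 10 bases before the summit and CACTTG starting 22 bases after it. The window upstream of Antp had CAGCTG starting 1 base before the summit, which the word therefore spans. CAGCTG is the E-box most often associated with MyoD-type factors. The Ubx window had CAAATG starting 11 bases before its summit, and the Antp intron had CAAATG only 82 bases after it. The abd-A window, although it ranked above the Antp and Ubx windows, held no E-box in these 201 bases. Neither did the window around the second Antp intron summit, at 6903504, which ranked 1630. Of the summits between the Hox genes that are not printed, those at 6762902, 6763107 and 16794378 held none and that at 6765101 held 1.

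Ranks give the place of a region when a list is sorted by the signal value, the authors' measure of enrichment, with rank 1 the strongest. Scr, Antp, Ubx and abd-A had at least 1 IDR summit, and lab, pb, Dfd and Abd-B had none. The share of 4 of 8 (50%) stood between the 43.4% of all 13945 protein-coding genes and the 63.4% of the 1977 genes with a body of at least 10 kb that had an IDR summit by the same rule. The Hox genes have bodies of 10.6 to 103 kb, so the second background is nearer to their length. A share this close to both backgrounds is not a result about the Hox genes as a list. Taking as many of the strongest regions of each replicate alone, 5, 3 and 5 Hox genes had a summit in replicates 1, 2 and 3, beside 46.1%, 45.9% and 46.7% of all genes.

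**Figure D1:**
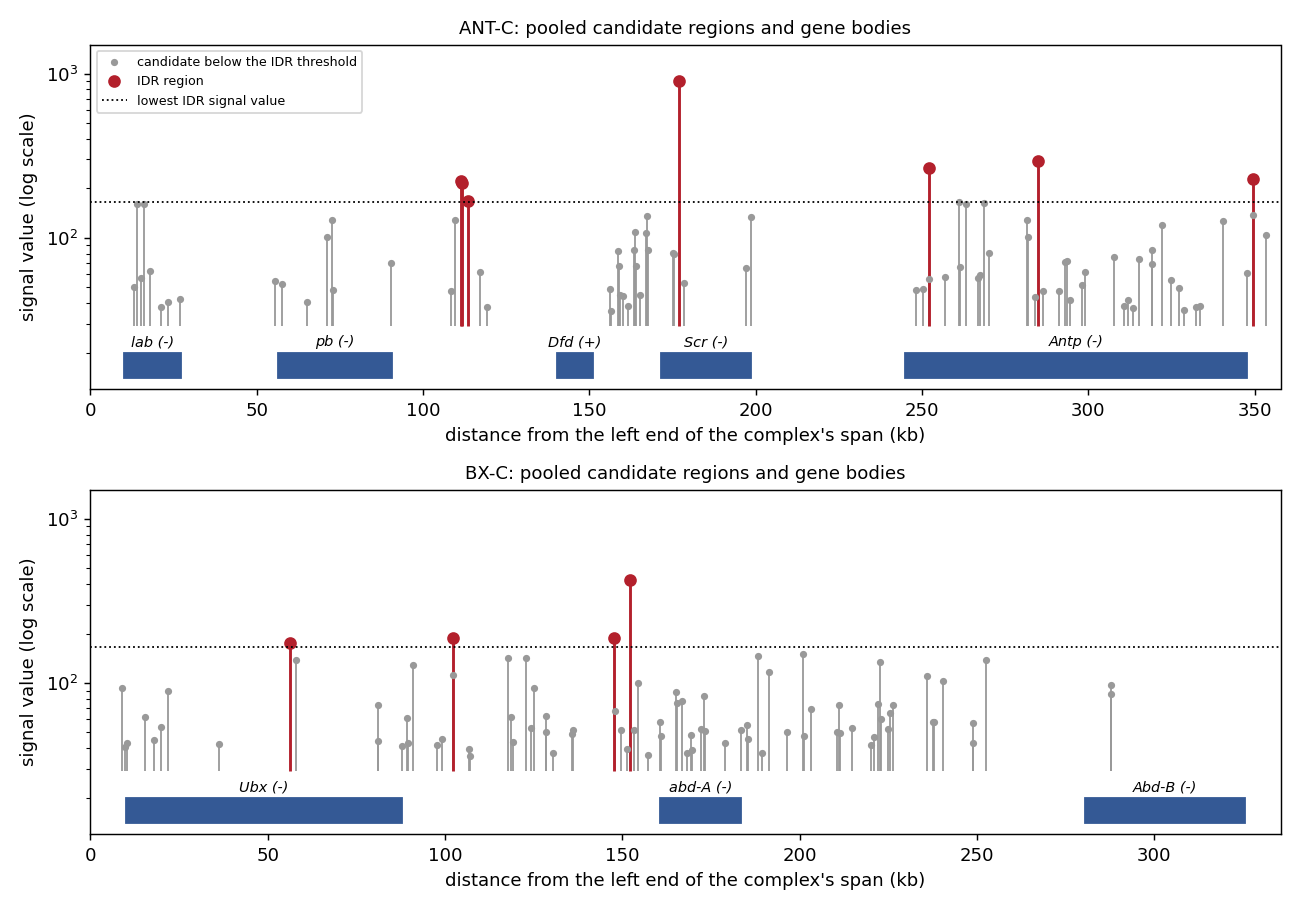
Pooled candidate regions along the Antennapedia complex (top) and the bithorax complex (bottom), by distance in kb from the left end of each span, with the signal value on a log axis. Blue bars are gene bodies with their strand, red marks are IDR regions and grey marks are candidates below the IDR threshold, whose lowest signal value (dotted) was 166. The intronic Scr region stands highest at 895, followed by the region downstream of abd-A at 421.

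Scr (FBgn0003339, chr3R:6823120-6849981, minus strand) specifies the labial and anterior thoracic segments and the embryonic salivary glands. It held the strongest region of both complexes, chr3R:6828301-6828649, with its summit at 6828472 in an intron, 20.03 kb from the nearest Scr transcription start site (TSS). The region ranked 120 of the 3767, within the top 3.19% of the list, with a signal value of 895. It ranked 123, 99 and 193 in the lists of replicates 1, 2 and 3, a mean of 138 ± 48.8 (SD, n = 3), with signal values of 295, 301 and 291. By these ranks the 3 replicates placed it alike, and their summits lay within 16 bp of the pooled one. The signal values are not compared between replicates, whose strongest 3767 regions reached down to 57.9, 59.2 and 67.5. A weaker candidate lay 189 bp upstream of the Scr start, at rank 5310, below the threshold. Replicate 1 also had a region past the 3′ end of Scr at rank 1842, which stood at 7668 in replicate 2 and had no summit within 100 bp in replicate 3. Replicate 3 had a region of its own past the 3′ end, with its summit at 6819078 and rank 3517. The pooled candidate nearest to that summit was a separate one of rank 10503.

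Antp (FBgn0260642, chr3R:6896253-6999228, minus strand) is the selector of the thorax and the leg, and has the longest body of the 8 genes, 103 kb. It had 3 IDR summits, 2 in introns and 1 upstream of the gene. The strongest, chr3R:6936258-6936469, ranked 1342 and lay in an intron 3.52 kb upstream of an internal Antp TSS. Its ranks of 1357, 1683 and 1402 in replicates 1, 2 and 3 averaged 1481 ± 177 (SD, n = 3), and all 3 replicates held it among their strongest 3767.

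The second Antp region, chr3R:6903274-6903733, ranked 1630 and lay in an intron 29.3 kb from the nearest Antp TSS, in or within 500 bp of lncRNA:CR43252. It ranked 1474, 1919 and 3127 in replicates 1, 2 and 3. Both intronic regions also lie in or beside CG46458, a gene annotated over the same part of Antp. The third, chr3R:7000590-7001049, ranked 2148 and lay 1.59 kb upstream of the distal Antp TSS, in or within 500 bp of lncRNA:CR45899. It ranked 1906 in replicate 1 and 1817 in replicate 3, and replicate 2 had no summit within 100 bp. The nearest summit of replicate 2 was 126 bp away and ranked 3505. That summit lay closer, at 77 bp, to a separate pooled candidate of rank 5120, so replicate 2 is not counted as holding the IDR summit. This is the region whose summit falls in a CAGCTG.

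Antp also had 3 intronic candidates immediately below the threshold of rank 3767. The nearest, with its summit at 6912517, ranked 3773, and the others, at 6920156 and 6914556, ranked 3916 and 3969. The candidate at 6912517 varied widely, at 1788, 4006 and 25246 in replicates 1, 2 and 3. Immediately inside the threshold, the weakest IDR summit of any Hox gene was that of Ubx at rank 3434.

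Ubx (FBgn0003944, chr3R:16656623-16734426, minus strand) specifies the posterior thorax and anterior abdomen, and its large introns carry segment-specific enhancers. Its only IDR region, chr3R:16702801-16703260, lay in an intron 31.4 kb from the TSS, with a signal value of 176. It ranked 2847, 10062 and 3100 in replicates 1, 2 and 3, a mean of 5336 ± 4095 (SD, n = 3). Replicate 2 thus stood apart from the other 2 and placed the region outside its own strongest 3767. A candidate 1.47 kb away on the TSS side, at summit 16704504, ranked 5047. Another, 3.07 kb upstream of the start of Ubx, ranked 5634.

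abd-A (FBgn0000014, chr3R:16807214-16830049, minus strand) specifies the middle abdominal segments. Its IDR region, chr3R:16798734-16799017, lay outside the gene, 8.35 kb beyond its 3′ end and 10549 bp from the nearest protein-coding TSS of any gene. The region ranked 681 with a signal value of 421, and 1040, 737 and 596 in replicates 1, 2 and 3, a mean of 791 ± 227 (SD, n = 3). All 3 replicates placed it in their strongest 3767. The assignment to abd-A rests on the 10 kb window, since with 2 kb on either side, or the body alone, the gene had no IDR summit. Upstream, candidates at ranks 4675 and 6537 lay in or within 500 bp of lncRNA:iab8 and MSAmiP, noncoding and small-peptide transcripts of the bithorax complex.

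**Figure D2:**
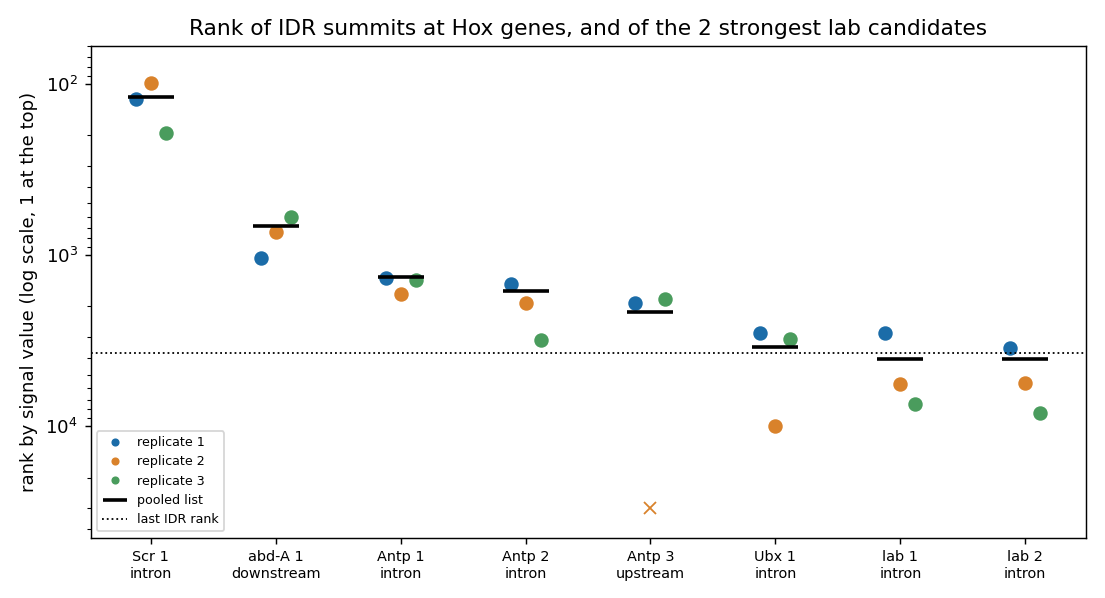
Rank by signal value (log axis, strongest at the top) of the 6 IDR summits at Hox genes, and of the 2 strongest lab candidates, in replicates 1, 2 and 3 (dots) and in the pooled list (bars). The dotted line is the last IDR rank, 3767, and the cross marks replicate 2, which had no summit within 100 bp of the region upstream of Antp. The Scr dots lie between 99 and 193, whereas the Ubx dots lie between 2847 and 10062.

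Across the 6 IDR summits, 5 had a summit within 100 bp in every replicate's list of 30000 candidates, and 4 were among the strongest 3767 of every replicate. The IDR list equals the strongest 3767 of the list pooled from these same replicates, so these counts are not independent of it. The same counts over all 3767 regions were not made, so these counts only describe the 6 summits. The regions at Scr and abd-A and the intronic pair at Antp met both counts. The region upstream of Antp and the Ubx region fell short of at least 1 of these counts, in each case through replicate 2 alone.

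The genes without an IDR summit differed in how near they came to the threshold. lab (FBgn0002522, chr3R:6661427-6678590, minus strand), which acts in the head and the midgut, came closest, with intronic candidates at 6665501 and 6667448 that ranked 4038 and 4068. The stronger of these ranked 2869, 5642 and 7482 in replicates 1, 2 and 3, and the other ranked 3492, 5613 and 8422. Both were inside the strongest 3767 of replicate 1 only. The pair lay 2.05 and 3.99 kb upstream of an internal lab TSS.

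pb (FBgn0051481, chr3R:6707800-6742063, minus strand) specifies the adult mouthparts. Its strongest candidate, at 6724089 in an intron, ranked 5691, with ranks of 7204, 8455 and 4062 in replicates 1, 2 and 3. A further candidate at the pb promoter, at 6741888, ranked 13435. None of the replicates had a pb region among its strongest 3767.

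Dfd (FBgn0000439, chr3R:6791836-6802428, plus strand) specifies the maxillary and mandibular segments and is the only one of the 8 on the plus strand. No pooled candidate lay in its body. All 6 candidates of its window were outside it, and the strongest, at 6810005, ranked 10741 and lay 7.58 kb past the 3′ end, in or within 500 bp of mir-10 and lncRNA:CR42651. The microRNA gene mir-10 is a conserved resident of Hox clusters. The candidate ranked 15222, 8447 and 22729 in replicates 1, 2 and 3.

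Abd-B (FBgn0000015, chr3R:16927212-16972236, minus strand) specifies the posterior abdomen and has 6 annotated TSSs. Its window of 65.0 kb held 2 pooled candidates, at 16934311 and 16934520, which ranked 8652 and 10419 and lay 69 and 278 bp from the same internal TSS. The density of 3.08 per 100 kb was at or above that of 237 of the 1977 genes with a body of at least 10 kb, so it was low but within their range. Replicates 1 and 3 each had a region in an Abd-B intron, at 16948776 and 16948839, which ranked 6521 and 3689. The nearest pooled candidate to these was 14.3 kb away, so the pooled list does not record them.

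**Figure D3:**
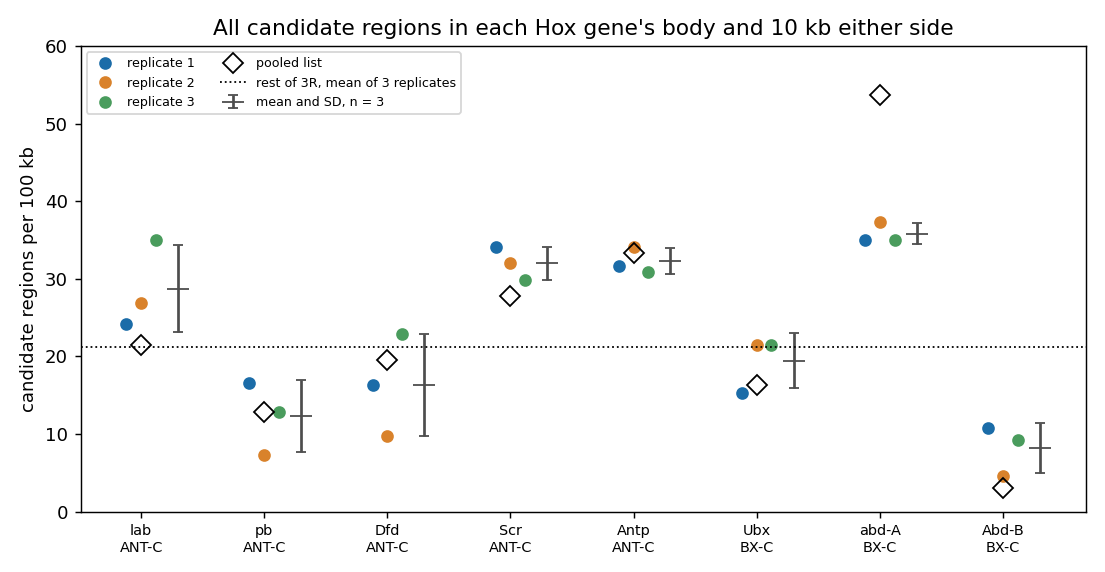
Candidate regions per 100 kb in the body and 10 kb either side of each Hox gene, for replicates 1, 2 and 3 (dots), their mean and SD (grey, n = 3) and the pooled list (diamonds). The dotted line is the rest of chromosome arm 3R, 21.2 per 100 kb as the mean of 3 replicates. lab, Scr, Antp and abd-A lie above the line in every replicate, and pb and Abd-B below it.

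Counted over all candidates, abd-A had the highest density, 35.8 ± 1.35 per 100 kb (SD, n = 3), and Abd-B, its neighbour in the bithorax complex, the lowest, 8.20 ± 3.20 per 100 kb. Antp had 32.3 ± 1.69 and Scr 32.0 ± 2.13 candidates per 100 kb, which did not differ beyond their spread, followed by lab with 28.7 ± 5.60. Ubx had 19.4 ± 3.54, Dfd 16.3 ± 6.54 and pb 12.3 ± 4.64, and each of these neighbours overlapped with the next. In the pooled list abd-A stood at 53.7 per 100 kb, at the percentile 88.7 of genes with a body of at least 10 kb, whose median was 22.1. Antp (33.3) and Scr (27.7) stood at percentiles 68.9 and 59.9, and lab (21.5), Dfd (19.6), Ubx (16.4), pb (12.9) and Abd-B (3.08) below that median.

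Strong regions were fewer per length in the Hox windows than in the rest of 3R, and candidates of any strength were not. The windows held 1.21 IDR summits per 100 kb and the rest of 3R 2.71, a ratio of 0.445. In the strongest 3767 regions of each replicate, the Hox windows had 1.67 ± 0.418 summits per 100 kb and the rest of 3R 2.73 ± 0.0606 (SD, n = 3). The difference of -1.06 ± 0.468 was negative in 3 of 3 replicates, but the exact two-sided sign-flip permutation test gave p = 0.25, the smallest that 3 replicates allow, so it could not pass 0.05. The SD and the test cover variation between replicates of the same windows, not variation between stretches of the arm. The rest of 3R was taken as a whole, not as windows of genes of like length. For all candidates the Hox windows had 23.4 ± 0.761 and the rest of 3R 21.2 ± 0.242 per 100 kb, higher in 3 of 3 replicates (exact sign-flip p = 0.25).

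The same measure was taken for each complex. The bithorax genes had 0.972 ± 0.486 strong summits per 100 kb, against 2.73 ± 0.0581 in the rest of 3R, lower in 3 of 3 replicates (exact sign-flip p = 0.25). The Antennapedia genes had 2.17 ± 0.523, against 2.72 ± 0.0571 in the rest of 3R, lower in 2 of 3 (exact sign-flip p = 0.5). For all candidates the complexes went opposite ways. The bithorax genes had 19.3 ± 1.22 per 100 kb, against 21.2 ± 0.237 in the rest of 3R, lower in 3 of 3 replicates. The Antennapedia genes had 26.4 ± 0.907, against 21.2 ± 0.233, higher in 3 of 3 (exact sign-flip p = 0.25 for each). Between the complexes, the Antennapedia genes had 1.20 ± 0.586 more strong summits and 7.1 ± 1.47 more candidates per 100 kb than the bithorax genes, in 3 of 3 replicates (exact sign-flip p = 0.25 for each).

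None of the 6 Hox summits lay at a promoter. The nearest to any protein-coding TSS was the region upstream of Antp at 1592 bp, while 38.1% of all 3767 summits lay within 500 bp of one (95% Wilson interval 36.6 to 39.7%). With 0 of 6, the upper end of the Wilson interval is 39.0%, which includes the share of the whole list. Viewed from the genes, 0 of 19 Hox TSSs had an IDR summit within 500 bp, which allows a share of up to 15.8% (3 counts of 19), beside 9.94% of the 19252 TSSs of all protein-coding genes. Weaker candidates were common there. A pooled candidate lay within 500 bp of 10 of the 19 Hox TSSs (52.6%), in 7 of the 8 genes, beside 31.4% of all TSSs. Dfd was the gene with none. These 19 TSSs belong to 8 genes and are not independent.

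Between the Hox windows lay 5 further IDR summits, which raised the total over the whole spans to 7 in the 358 kb of the Antennapedia complex and 4 in the 336 kb of the bithorax complex. In the Antennapedia complex, 3 of them lay at Amalgam (Ama), an immunoglobulin-domain adhesion gene between pb and Dfd, with ranks of 2246, 2355 and 3687. The first of these matched a summit in replicate 1 only, at rank 3017, and the second ranked 7700, 1865 and 2125 in replicates 1, 2 and 3. Their summits, at 6762902 and 6763107, lie 205 bp apart.

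In the bithorax complex, the summit at 16748761, in or within 500 bp of the noncoding RNA gene lncRNA:bxd, ranked 3085. It lay 14.3 kb upstream of Ubx and held the E-box CATCTG starting 4 bases before the summit, as printed above. The bxd region is known for the enhancers and the Polycomb response element that act on Ubx. Its ranks of 3699, 4804 and 3139 in replicates 1, 2 and 3 averaged 3881 ± 847 (SD, n = 3). The other, at 16794378, 12.8 kb past the 3′ end of abd-A and 4.48 kb from the stronger region described there, ranked 3031.

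Long stretches of both complexes held no pooled candidate. The longest between neighbouring candidates of the same span was 49.5 kb, from the Scr promoter to the 3′ part of Antp (chr3R:6850170-6899649). It holds fushi tarazu (ftz), a pair-rule homeobox gene. A stretch of 36.8 kb covered the whole of Dfd (chr3R:6770826-6807655), 28.6 kb lay between lab and pb, and 35.1 kb lay on the 3′ side of Abd-B (chr3R:16899206-16934311). The median gap between neighbouring candidates over all arms was 1.17 kb, but gaps of 49.5 kb or more numbered 350 of 29994, and gaps of 35.1 kb or more numbered 690. The replicates' own lists were not empty there. In the stretch of 49.5 kb they had 7, 2 and 4 candidates in replicates 1, 2 and 3, around Dfd 2, 1 and 5, and in the 35.1 kb beside Abd-B 4, 0 and 6.

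Short words were looked for on either strand in the 201 bases centred on each summit. A match is a description of the sequence, not of binding. An E-box (CANNTG) was present at 4 of the 6 Hox summits (66.7%), beside 66.0% of all 3767. CAGCTG was present at 1 of 6 (16.7%, 95% Wilson interval 3.01 to 56.4%), beside 15.1% of all. The word GAGAG, read by the GAGA factor Trl, was present at 3 of 6 (50%, interval 18.8 to 81.2%), beside 28.0% of all. It occurred 6 times, partly overlapping, upstream of Antp, 5 times at Ubx and 1 time at abd-A.

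GCCAT, the core of the word read by the Polycomb recruiter Pho, was present at 4 of 6 (interval 30.0 to 90.3%), beside 26.4% of all. These were the 3 Antp summits and the Ubx summit, where a match on the minus strand started 1 base before the summit. CAGGTAG, the word read by the early activator Zelda, occurred at abd-A, on the minus strand 22 bases after the summit, beside 1.17% of all summits. The Wilson intervals for GCCAT and for CAGGTAG (3.01 to 56.4%) leave out the share of the whole list, and those for the E-box, the MyoD-type E-box and the GAGA word include it. Wilson intervals are approximate at 6 summits, so GCCAT and CAGGTAG are not shown to be more common here than in the list. These are 6 summits and many words, with no test made, and 3 of the 4 GCCAT matches share the gene Antp. TAAACA, read by forkhead factors, occurred at the region upstream of Antp, beside 26.9% of all.

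The homeodomain words gave no match. TAATTA was at 0 of 6, beside 14.2% of all, TGATTNAT at 0 of 6, beside 5.60%, and TTTATG at 0 of 6, beside 22.3%. TGATAA, the GATA word, was also at 0 of 6, beside 17.0%. For each of these, the upper end of the 95% Wilson interval for 0 of 6 is 39.0%, which includes the share of all summits. The GC share of the 6 windows ran from 28.9% in the Antp intron to 54.2% upstream of Antp, with a mean of 44.5%, beside 38.7 ± 8.10% (SD over 3767 windows) for all summits.

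**Figure D4:**
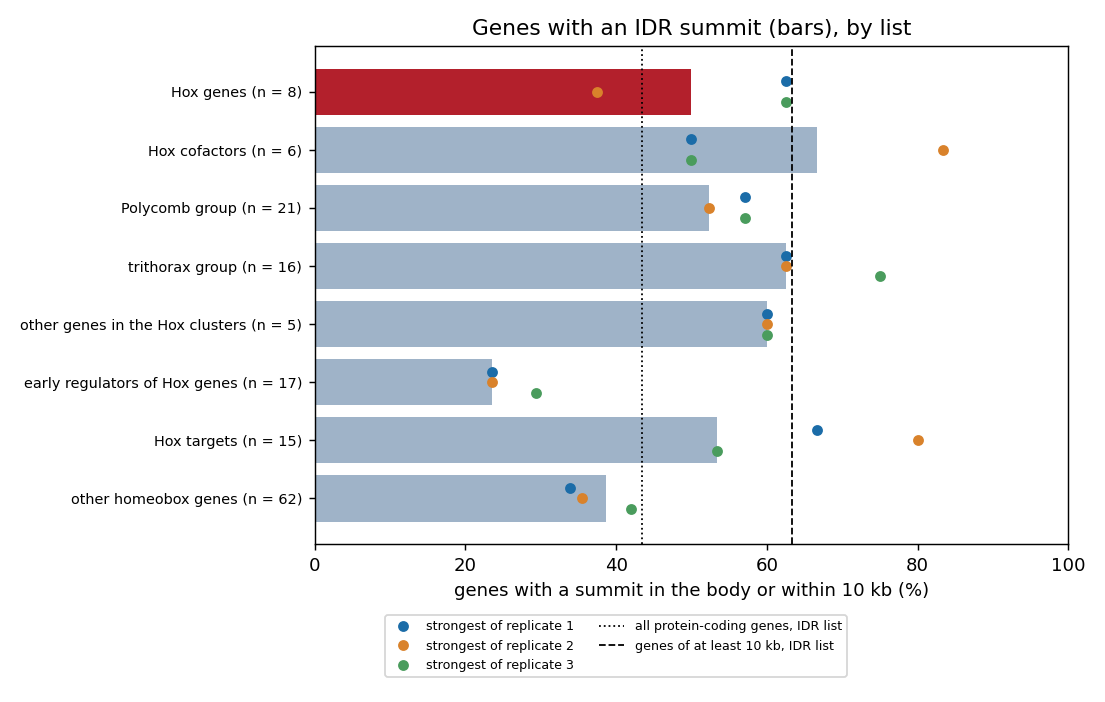
Share of genes with an IDR summit in the body or within 10 kb (bars, %) for the Hox genes and for lists of genes that act with, before or after them, with the number of genes in each list. Dots give the share for the strongest 3767 regions of replicates 1, 2 and 3, and the lines the 43.4% of all protein-coding genes (dotted) and the 63.4% of genes with a body of at least 10 kb (dashed). The Hox genes stand at 50% and the early regulators lowest at 23.5%.

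Genes known to act with the Hox genes were counted by the same rule. Of 6 Hox cofactors, 4 had an IDR summit (66.7%), beside 43.4% of all genes and 63.4% of genes with a body of at least 10 kb. homothorax (hth), which brings Extradenticle into the nucleus, had 9 summits, with a body of 132 kb, longer than that of any Hox gene. Its strongest ranked 1155 (1277 ± 407 in the replicates, n = 3), followed by disco-r at 1317 and tiptop (tio) at 2961. Of 15 genes listed as Hox targets, 8 had one (53.3%), led by buttonhead (btd) at rank 256 and cap-n-collar (cnc) at 475. Next was decapentaplegic (dpp), the BMP ligand induced by Ubx in the midgut, at 1179. The regions named for tio, btd and cnc lay outside the gene bodies, and those for hth, disco-r and dpp inside.

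Polycomb and trithorax group genes encode the chromatin regulators that keep Hox genes off or on. The strongest region of 4 of the 11 Polycomb group genes and 3 of the 10 trithorax group genes with an IDR summit ranked above the Scr region. The same count over all genes with an IDR summit was not made, so this only describes the named lists. In the Polycomb group 11 of 21 genes (52.4%) had an IDR summit, with Polycomb (Pc) at rank 29, polyhomeotic proximal (ph-p) at 39 and Posterior sex combs (Psc) at 77. In the trithorax group 10 of 16 (62.5%) had one, with Trithorax-like (Trl), the gene of the GAGA factor, at rank 9, osa at 47 and trithorax (trx) at 89. The regions named for Pc and Psc lay outside the gene bodies, and those for ph-p, Trl, osa and trx inside. In the replicates the Trl region averaged rank 9.33 ± 2.08 and the Pc region 33.0 ± 7.55 (SD, n = 3), against 138 ± 48.8 for Scr. The counts of both groups stood between the 43.4% and 63.4% of the backgrounds.

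Of 17 gap, pair-rule and other early regulators that set the Hox borders in the early embryo, 4 had an IDR summit (23.5%), below the 43.4% of all genes. Their bodies are short, with a median of 2.83 kb. sloppy paired 1 and 2 (slp1 and slp2) share a summit at rank 212, caudal (cad) had its strongest at 1165 and hairy, annotated as hry, at 1306. Of 5 other genes inside the Hox clusters, Ama, bicoid (bcd) and zen shared the Ama summits at rank 2246 and below, and ftz and zen2 had none. Of 62 other homeobox genes, 24 had one (38.7%), led by C15 at rank 74, zfh2 at 158 and zfh1 at 269. The regions named for slp1, slp2, cad, hry, C15 and zfh2 lay outside the gene bodies, and that for zfh1 inside. These shares were set beside the backgrounds only, and no difference between lists was tested. The counts depend on the window, since with the gene body alone 4 Polycomb group genes, 4 Hox targets and 7 other homeobox genes had an IDR summit. The share of all genes was not counted for the gene body alone.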

How the data were processed

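The assay was ChIP-seq with an anti-GFP antibody on nau-eGFP embryos in 3 biological replicates, per the labels. The authors deposited narrowPeak lists on dm6, with 30000 candidate regions for each replicate and for the pooled replicates, and an IDR-thresholded list of 3767, which equals the strongest 3767 of the pooled list. The signal value in these lists is the authors' deposited measure, whose scale the sources do not name. It was used to rank regions within a list, and is printed or plotted for some regions as a description. No aligner, peak caller or IDR cutoff is named in these sources. Read depth is unknown, and the fixed list lengths carry no information on it. Intervals cover counting error only. Lists on dm3 were not used here.

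Positions are 1-based. Genes and TSSs came from Ensembl release 115 (BDGP6.54), and sequences from RefSeq Release 6, both the build of the files. A replicate's summit matched within 100 bp. The named genes are the 8 Hox genes and up to 3 genes of each related list with the strongest summit. Regions just outside the threshold and regions between the windows were named in addition. The members and lists were chosen with earlier results of these data known. All 141 listed genes were matched, 3 of them by another spelling. The scripts were tested on simulated data. Alternatives covered the window, the list length, the summit rule and leaving out each replicate. Computation used Python 3.11.15, numpy 2.4.6, pandas 2.3.3, scipy 1.17.1 and matplotlib 3.10.9.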

Additional observations from a re-analysis of the deposited data

How the results depend on the processing

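The number of Hox genes with an IDR summit, 4, ran from 3 to 6 over the window, the list length, the summit rule and leaving out a replicate. It was 3 with the gene body alone, with 2 kb on either side and with the nearest TSS (abd-A lost in each), 3 in the stronger part of the list of 1883 regions (Ubx lost), 5 with 20 kb (Abd-B added) and 6 in the strongest 7534 pooled regions (lab and pb added). The number of summits, 6, became 24 in those 7534 regions, and 11 over the whole span of each complex, an alternative chosen after seeing the data. Without 1 replicate, where a region had to match the strongest of both others, 4 to 6 summits and 3 to 4 genes remained; the Ubx summit was lost without replicate 1 and without replicate 3. Without 1 replicate the CAGCTG share ran from 0 to 16.7%, since the region upstream of Antp, the only one with that word within 100 bp, was lost with the Ubx summit; with 250 bp on either side the share was 33.3%. Related lists depended on the window. With the gene body alone, and with 2 kb on either side, 4 and 8 Polycomb group genes had an IDR summit (11 with 10 kb), 8 and 9 trithorax group genes (10), 2 and 3 cofactors (4), 4 and 5 Hox targets (8), 2 and 2 early regulators (4), 1 and 1 other cluster genes (3), and 7 and 13 other homeobox genes (24). The sign of the density difference was the same in all alternatives run. No paired analysis was possible because there is 1 group. With 6 summits, shares have wide intervals, and without read depth a missing region is not shown to be unbound.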
